A study of Homo sapiens with 4 samples.

Results

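The interferon-stimulated genes and RNA sensors described here are 79 of the 54613 probe sets tested on an oligonucleotide expression array. They were chosen by name: a probe set belongs when the platform annotation gives it exactly 1 symbol and that symbol is on a list of 44. RIGI and DDX58 on that list are names of the same gene, which leaves 43 genes, of which 42 had a probe set; STAT2 was not analysed here. RNA came from SH-SY5Y cells, an established human neuroblastoma line, kept in medium with 10% fetal bovine serum and harvested 72 h after treatment. The groups were TSPAN8 knockdown, in which the Accell system carried a small interfering RNA that targets TSPAN8 into the cells, and a transfection control. Each group had 2 arrays, 1 per sample. The labels do not state what the control cells received, so the comparison sets knockdown against control conditions and not against untouched cells. The labels do not say whether the 2 samples of a group were separate cultures, so p-values measure only how far these arrays spread, and that spread may be purely technical. All cells came from 1 line.

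Small interfering RNA is itself a foreign RNA, and the genes described here are the usual readout of a cell's reaction to one. RNA in the cytosol is recognised by RIG-I (gene RIGI) and MDA5 (IFIH1), which signal through MAVS on mitochondria, while TLR3, TLR7 and TLR8 sense RNA in endosomes. These routes activate IRF3 and IRF7, which switch on interferon beta (IFNB1). Secreted interferon binds the receptor of IFNAR1 and IFNAR2, and a complex that contains STAT2 and IRF9 then drives genes such as IFIT1, ISG15 and MX1 through a short promoter element. The products block translation, degrade RNA or restrain virus assembly, and some of them, such as USP18, damp the pathway again.

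The targeted gene was measured first. TSPAN8, a tetraspanin of the cell surface, stood at log2 6.25 and 6.35 in knockdown cells, well below the 7.52 and 7.62 of control cells. In bulk RNA, fewer cells with a transcript and less transcript per cell cannot be told apart, for this gene and all that follow. It fell by 1.27 ± 0.062 (SE) on the log2 scale, leaving 41.5% of the control signal (limma, adjusted p = 0.0026), and was the only probe set of 54613 to pass the threshold of 0.05 after Benjamini-Hochberg adjustment (0.00183%). Markers of sympathetic neuroblasts were mostly high, with 8 of 9 measured genes above the array median in control cells, the exception being TH, and their summed log2 values were 97.0 and 97.5 in knockdown cells against 98.1 and 98.2 in control cells. Of these 9 genes, DBH (-0.35), CHGA (-0.29) and CHGB (-0.20) were lower without overlap at an unadjusted p under 0.05 and none passed (limma). Over all 19775 genes, taken 1 probe set a gene, 1101 were lower and 473 higher at that level. Without overlap, 4789 of them were lower and 2833 higher. A second, dimmer probe set of DBH differed by 0.037. The part of the neuroblast markers in the results below was not tested. At the probe set with the highest mean signal of each gene, the 10 leukocyte markers spanned percentiles 15.9 to 58.0, and 8 lay below the array median. Of the 10, IL3RA (0.17) was higher without overlap at an unadjusted p under 0.05 and did not pass (limma). Of 7 fibroblast markers 5 lay above the median, over percentiles 31.3 to 97.2, and their log2 values summed to 61.1 and 59.1 in knockdown replicates 1 and 2 against 59.3 and 58.4 in control replicates 1 and 2.

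In the control cells the members were spread from percentile 2.85 to 91.6 of all probe sets, and as a list they lay slightly below the middle. A probe set's brightness also depends on its probes, so each value below is a distance from the array's own median (6.58 on both control arrays) and no gene is ranked against another as an amount of RNA. Of the 79 probe sets, 34 lay above the array median on both control arrays and 45 lay below it on both, and 48.7% of all probe sets lay above it on both. By gene, 23 of 42 had all their probe sets below the median and 15 had all of them above. At the representative probe set, the one with the highest mean signal, 19 of 42 genes lay above it on both arrays (45.2%), against 12349 of all 19775 genes (62.4%). The median member stood at percentile 45.6 of all probe sets. Only 9 probe sets exceeded the 75th percentile of both control arrays.

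The share of probe sets above the median differed between the roles, which were assigned with earlier results of these data known. The plot of levels shows 1 probe set a gene. Of the probe sets of the antiviral effectors, 24 of 31 lay below the array median in control cells, and of those of the RNA sensors 18 of 24. The 6 sensor probe sets above it were all of RIGI and EIF2AK2. By contrast 11 of 12 probe sets of MAVS, IFNB1 and the interferon receptor subunits lay above it, IFNB1 being the exception. So did 4 of 5 of the interferon regulatory factors. In the role of ISG15 pathway and ubiquitin-like signalling, which includes HERC6 and PARP9, 6 of 7 lay above it. These are counts of probe sets, several of which share a gene.

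**Figure D1:**
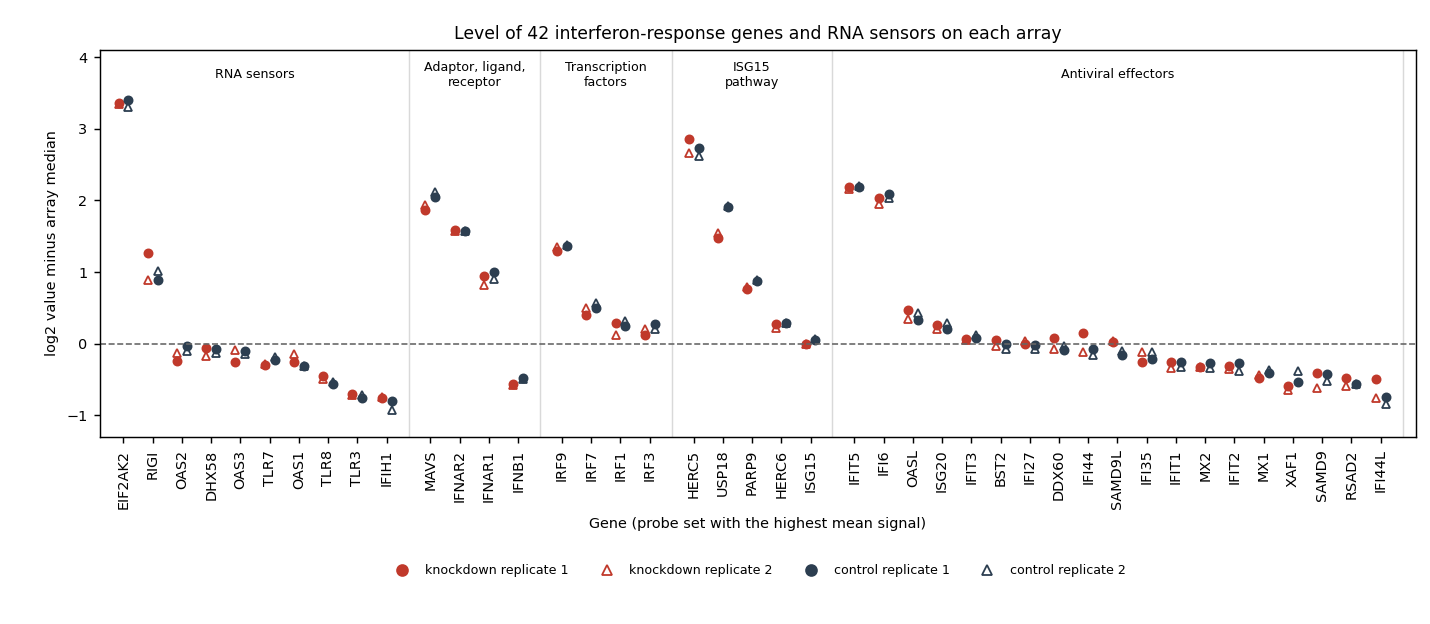
Log2 value minus the array median (vertical axis) for the representative probe set of each of 42 genes (horizontal axis, grouped by role), with the knockdown arrays in red left of the control arrays in dark blue, circles for replicate 1 and triangles for replicate 2; the dashed line is the array median. EIF2AK2, HERC5, IFIT5, MAVS and IFI6 stand at least 2 log2 units above the median in control cells, while most antiviral effectors lie at or below it, and the red and blue points of most genes stand at nearly the same height.

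The promoter element through which the interferon-activated complex acts has a core of GAAA, any 2 bases and GAAA again. RefSeq promoter windows of GRCh38.p14, from 250 bases before to 50 bases after the gene start, matched 32 of the 42 measured genes by symbol. The core was searched as these letters on both strands, counting matches that overlap each other separately. At least 1 match was present in 18 of the 32 member windows (56.2%), against 996 of all 27305 windows (3.65%). A match is a description of letters and was not tested for binding. The 4 windows below carry the core and are shown because their genes' probe sets lay at different distances from the array median in the same control cells. Capitals mark each match, read as GAAA, 2 bases and GAAA where it lies on the gene's strand, or as TTTC, 2 bases and TTTC where it lies on the other strand; the sequences run 5′ to 3′ along the gene's strand.
HERC5, chr4:88456869-88457168, plus strand: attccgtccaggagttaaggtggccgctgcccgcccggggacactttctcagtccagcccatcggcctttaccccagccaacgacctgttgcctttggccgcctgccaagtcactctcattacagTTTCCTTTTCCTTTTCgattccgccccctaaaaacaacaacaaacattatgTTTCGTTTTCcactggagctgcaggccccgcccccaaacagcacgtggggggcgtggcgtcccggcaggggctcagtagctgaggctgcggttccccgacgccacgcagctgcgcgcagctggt
IFI6, chr1:27672143-27672442, minus strand: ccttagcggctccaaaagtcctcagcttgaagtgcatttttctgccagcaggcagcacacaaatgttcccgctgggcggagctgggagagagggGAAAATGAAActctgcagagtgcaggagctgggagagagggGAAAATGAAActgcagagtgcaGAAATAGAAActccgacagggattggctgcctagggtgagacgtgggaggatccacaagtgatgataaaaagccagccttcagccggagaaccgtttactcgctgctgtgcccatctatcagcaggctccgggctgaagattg
ISG15, chr1:1013247-1013546, plus strand: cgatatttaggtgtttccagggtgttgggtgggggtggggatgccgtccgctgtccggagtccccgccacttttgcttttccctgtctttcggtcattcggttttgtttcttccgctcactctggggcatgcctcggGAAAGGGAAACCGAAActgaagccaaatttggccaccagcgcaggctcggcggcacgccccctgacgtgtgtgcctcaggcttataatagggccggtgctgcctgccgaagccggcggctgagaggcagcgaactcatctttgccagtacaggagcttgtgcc
IFIT1, chr10:89392373-89392672, plus strand: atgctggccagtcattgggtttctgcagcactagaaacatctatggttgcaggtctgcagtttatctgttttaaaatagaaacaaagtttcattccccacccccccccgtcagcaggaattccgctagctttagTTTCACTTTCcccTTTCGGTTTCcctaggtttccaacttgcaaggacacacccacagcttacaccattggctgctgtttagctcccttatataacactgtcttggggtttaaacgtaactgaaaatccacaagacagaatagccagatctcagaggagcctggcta
HERC5 and IFI6 have 3 matches each, ISG15 and IFIT1 have 2 each, and the adjoining matches of ISG15 and the first pair of HERC5 share bases. In control cells these genes lay 2.68, 2.06, 0.057 and -0.28 log2 units from the array median, in the order printed. Presence of the core did not go with one level: of the 18 genes whose window held it, 7 were above the array median and 11 below at their representative probe set. Of the 14 genes with a window and no match, 7 were above and 7 below.

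The knockdown did not move this set of genes past the threshold. Of the 79 probe sets, 0 passed after adjustment over all 54613 (limma), and 8 had an unadjusted p under 0.05, 2 higher and 6 lower. Among all probe sets 7.83% were under 0.05, 3.72% higher and 4.12% lower, so the members' share of 10.1% was near the background. The median over the 79 probe sets was 0.00 and the median over all probe sets was also 0.00 (log2, knockdown minus control), with 40 members above and 39 below their control value. Per array, the median member lay 0.013 above the control mean on knockdown replicate 1 and at -0.0070 for knockdown replicate 2, against 0.0027 and -0.0027 for the controls themselves. The members' typical difference between arrays spanned a like range across groups and within them. The median absolute difference was 0.077 between the knockdown arrays, 0.063 between the control arrays and from 0.050 to 0.081 for the pairs of a knockdown and a control array.

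The intervals limit how large a difference between knockdown and control these probe sets could have shown. A change common to both groups would not appear in them. The highest upper end of any member's 95% confidence interval was 0.39 on the log2 scale, a 1.31-fold signal, at a RIGI probe set, and 75 of 79 intervals ended below 0.3. The groups' arrays did not overlap for 33 member probe sets, 18 higher and 15 lower. Over all probe sets that share was 37.5%, with 17.7% higher and 19.8% lower. These bounds apply to the summarised signal and not to molecules, and how near each probe set lay to background was not assessed.

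**Figure D2:**
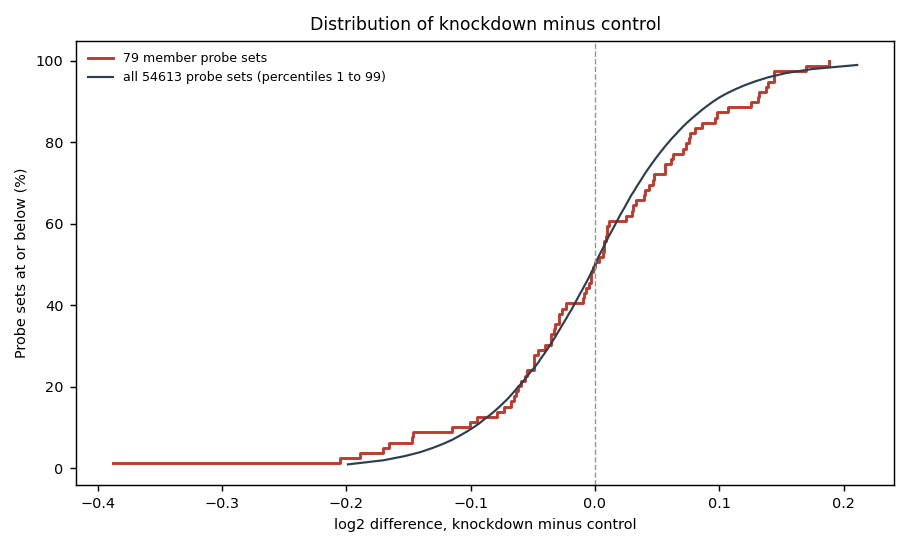
Cumulative share of probe sets (vertical axis, percent) at or below each log2 difference, knockdown minus control (horizontal axis), for the 79 member probe sets (red steps) and for all 54613 probe sets (dark blue, percentiles 1 to 99). Both curves cross 50% at 0.00, and USP18 at -0.39 is the member farthest from the rest.

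Among the RNA sensors none of the 24 probe sets passed over all probe sets and 1, of OAS2, had an unadjusted p under 0.05. RIGI, the cytosolic sensor of RNA with 5′ triphosphates, had log2 values of 7.85 and 7.50 in knockdown cells and of 7.47 and 7.59 in control cells. Knockdown replicate 1 stood above the other 3 arrays, and knockdown replicate 2 lay between the control arrays. The difference was 0.14 ± 0.11 (SE; limma, adjusted p = 0.78), and the other 2 probe sets of RIGI differed by 0.0097 and 0.031. Without knockdown replicate 1 the difference was -0.029, and without knockdown replicate 2 it was 0.32, so that 1 array decided the value. Of the 7 fibroblast markers 6 were also highest on knockdown replicate 1, PDGFRB being the exception. So were 2 of the 10 leukocyte markers and 2 of the 9 neuroblast markers. The fibroblast marker with the largest difference, the decorin gene DCN, stood there at 10.06, beside 9.19 in knockdown replicate 2. In control cells it had 9.17 and 9.09. The part of these markers in the result was not tested.

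IFIH1, the sensor of long RNA duplexes, and DHX58, a helper of both sensors that lacks their signalling domains, lay below the array median. IFIH1 had values of 5.82 and 5.86 in knockdown cells and of 5.78 and 5.65 in control cells at its representative probe set, a difference of 0.13 ± 0.062 (SE; limma, adjusted p = 0.66). The groups did not overlap there, but its other probe sets differed by 0.061 and 0.0097. All 3 stood at or under percentile 6.05 of all probe sets in control cells. DHX58 had 6.52 and 6.44 in knockdown cells and 6.50 and 6.45 in control cells. The groups overlapped, and the difference of 0.0029 took the opposite sign after a second quantile normalization or median centring.

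The endosomal sensors lay in the lower part of the array. TLR3 had values of 5.88 and 5.89 in knockdown cells and of 5.82 and 5.86 in control cells, and TLR8 had 6.14 and 6.12 against 6.01 and 6.04. The groups did not overlap at either probe set, and the differences of 0.040 and 0.097 did not pass (limma, adjusted p = 0.91 and 0.69). The other probe sets of TLR3 disagreed in sign, at -0.049 with overlapping groups and 0.086 without overlap. That of TLR8 differed by 0.076. TLR7 had 6.29 and 6.33 in knockdown cells and 6.36 and 6.39 in control cells, and its second probe set differed in the other direction, by 0.071. In control cells the 7 probe sets of these receptors spanned percentiles 2.85 to 41.2. The 10 leukocyte markers spanned percentiles 15.9 to 58.0 at the representative probe set of each gene only. The ranges therefore rest on unlike choices of probe sets and cannot be compared directly.

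EIF2AK2 encodes PKR, the kinase that halts translation when it binds duplex RNA, and its representative probe set lay 3.36 log2 units above the array median in control cells. Its values were 9.94 and 9.95 in knockdown cells and 9.98 and 9.89 in control cells. The knockdown arrays lay between the control arrays, and the difference was 0.0088, with a 95% interval from -0.12 to 0.14; after median centring it was -0.0050. Its other 2 probe sets differed by 0.043 and 0.0076.

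The oligoadenylate synthetases OAS1, OAS2 and OAS3, which make the signal that activates RNase L, gave mixed signs. OAS2 had 5.95 and 6.07 in knockdown cells and 6.15 and 6.17 in control cells at the probe set with the smallest p. The groups did not overlap there, and the difference was -0.15 ± 0.060 (SE; unadjusted p = 0.041, adjusted p = 0.63 by limma). The representative probe set of OAS2 differed by -0.10, with values of 6.34 and 6.48 against 6.55 and 6.47, and the third by 0.0065. OAS1 had 6.33 and 6.46 in knockdown cells and 6.27 and 6.26 in control cells, a difference of 0.13, while its other probe set differed by -0.040. OAS3 had 6.33 and 6.53 against 6.48 and 6.44, with overlapping groups and a difference of -0.033. All 7 probe sets of the 3 genes lay below the array median in control cells.

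Below the sensors, all 4 probe sets of the adaptor gene MAVS were lower in knockdown cells and none passed after adjustment. At the representative probe set the values were 8.44 and 8.54 in knockdown cells and 8.63 and 8.69 in control cells. The groups did not overlap, and the difference was -0.17 ± 0.059 (SE; unadjusted p = 0.023, adjusted p = 0.61 by limma). A second probe set had 6.81 and 6.88 against 7.06 and 6.97, likewise without overlap, with a difference of -0.17. The other 2 overlapped and differed by -0.029 and -0.068. Leaving out 1 array at a time moved the representative value between -0.22 and -0.11.

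The ligand gene IFNB1 had values of 6.02 and 6.03 in knockdown cells and of 6.10 and 6.09 in control cells, at percentile 26.0 of all probe sets. The groups stood apart, with a difference of -0.073 and a 95% interval from -0.19 to 0.044. IFNAR1, the receptor subunit bound by the kinase TYK2, had probe sets that disagreed. One had 6.98 and 6.94 in knockdown cells and 7.09 and 7.23 in control cells, a difference of -0.21 ± 0.063 (SE; unadjusted p = 0.012, adjusted p = 0.60 by limma). The other 3, whose groups overlapped, differed by -0.056, -0.0036 and 0.073, the first of them with 7.53 and 7.43 against 7.59 and 7.49. IFNAR2, the other subunit, had 8.17 and 8.19 in knockdown cells and 8.15 and 8.15 in control cells. Its groups did not overlap at any of its 3 probe sets, all higher, by 0.029, 0.13 and 0.063, and none had an unadjusted p under 0.05.

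The transcription factors did not differ beyond the spread between arrays. IRF3, which the sensors activate, had 6.70 and 6.81 in knockdown cells and 6.86 and 6.78 in control cells, and IRF7, which amplifies the response, had 6.98 and 7.10 against 7.09 and 7.15. IRF9, the DNA-binding part of the interferon-activated complex, had 7.88 and 7.96 against 7.94 and 7.95. All groups overlapped, also at the 2 probe sets of IRF1. The 5 probe sets of the 4 genes were all below control, with differences of -0.079 to -0.0030 and a median of -0.062, and 0 had an unadjusted p under 0.05.

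The ISG15 pathway held the largest difference of the whole list. ISG15 is a ubiquitin-like protein that is attached to other proteins; HERC5 attaches it, and USP18 removes it and also blocks signalling at IFNAR2. USP18 had values of 8.06 and 8.16 in knockdown cells and of 8.50 and 8.50 in control cells. Both knockdown arrays lay clear of the controls, which were nearly identical. The difference was -0.39 ± 0.057 (SE), 76.5% of the control signal with a 95% interval from -0.52 to -0.26 on the log2 scale, and did not pass over all probe sets (unadjusted p = 0.00015, adjusted p = 0.39 by limma). It ranked 20th by p and 67th by absolute size among the 54613 probe sets. With 1 array left out it ran from -0.44 to -0.34. A single probe set represents USP18, and RefSeq lists a related copy, USP41P, on the same chromosome, whose share of the signal was not tested.

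ISG15 itself had 6.57 and 6.61 in knockdown cells and 6.64 and 6.64 in control cells. The groups stood apart, but the difference was -0.046, with an interval from -0.16 to 0.072. HERC5 had 9.44 and 9.27 against 9.32 and 9.20, with overlapping groups and a difference of 0.098 ± 0.072 (SE; limma, adjusted p = 0.78). HERC6, its relative, differed by -0.023 and 0.033 at its 2 probe sets. PARP9, which acts in interferon signalling together with the ubiquitin ligase DTX3L, was lower at both probe sets without overlap. At one it had 7.01 and 7.02 in knockdown cells and 7.17 and 7.23 in control cells, a difference of -0.19 ± 0.053 (SE; unadjusted p = 0.0075, adjusted p = 0.60 by limma), and at the other, with 7.35 and 7.40 against 7.46 and 7.47, it differed by -0.095. DTX3L, which is no member of the list, had 8.31 and 8.25 in knockdown cells and 8.35 and 8.42 in control cells, a difference of -0.11 (limma, adjusted p = 0.69).

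**Figure D3:**
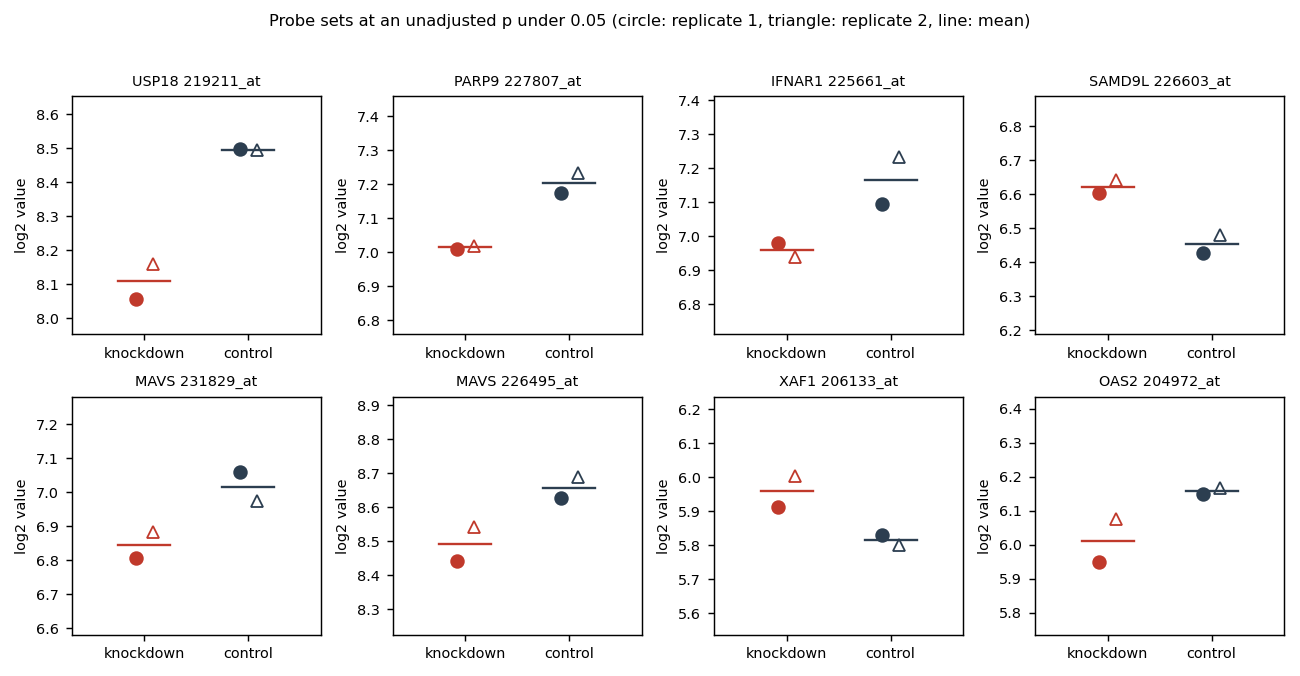
Log2 values (vertical axis, each panel spanning the same range) on the 2 knockdown arrays (left, red) and the 2 control arrays (right, dark blue) for the 8 member probe sets with an unadjusted p under 0.05, with circles for replicate 1, triangles for replicate 2 and a line at each group's mean. USP18 shows the widest gap, 8.06 and 8.16 against 8.50 and 8.50, and none of the 8 passed after adjustment.

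The antiviral effectors, which interferon induces most strongly in responsive cells, showed no common shift. Of their 31 probe sets, 16 were above control and 15 below, with a median of 0.00, 0 past the threshold (limma) and 2 at an unadjusted p under 0.05. IFIT1, which binds foreign RNA ends, had 6.33 and 6.27 in knockdown cells and 6.33 and 6.26 in control cells. The groups overlapped fully and differed by 0.00, with an interval from -0.13 to 0.13. Its relatives IFIT2, IFIT3 and IFIT5 differed by -0.049 to 0.0075 over 6 probe sets.

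MX1, a GTPase that traps viral nucleocapsids, had 6.10 and 6.17 in knockdown cells and 6.18 and 6.21 in control cells, and MX2 differed by -0.0049. IFI6, a small membrane protein that was well above the array median, had 8.62 and 8.56 against 8.67 and 8.62. The groups of MX1 did not overlap and those of IFI6 did. Neither MX1 (-0.059) nor IFI6 (-0.055) passed, and the upper ends of their intervals were 0.066 and 0.072. RSAD2, the enzyme viperin, differed by 0.040 and 0.048, the exonuclease gene ISG20 by -0.0015 and 0.025, OASL by 0.047 and -0.0072, and the virus tether BST2 by 0.056.

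A few effectors were higher in knockdown cells without passing. SAMD9L, a restriction factor and growth regulator, had 6.60 and 6.64 in knockdown cells and 6.43 and 6.48 in control cells, without overlap. Its difference was 0.17 ± 0.053 (SE; unadjusted p = 0.013, adjusted p = 0.60 by limma), and its other 2 probe sets were higher by 0.14 and 0.11. Its neighbour and relative SAMD9 was at -0.032 and -0.049. IFI44L had 6.10 and 5.85 against 5.84 and 5.73, with the closest arrays of the groups nearly equal, and a difference of 0.19 ± 0.084 (SE; limma, adjusted p = 0.64), the highest of any member. As for RIGI, its knockdown replicate 1 was the high array: the difference was 0.31 without knockdown replicate 2 and 0.066 without knockdown replicate 1. IFI44 differed by 0.14 and -0.12 at its 2 probe sets.

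XAF1, a promoter of cell death that interferon induces, gave opposite signs. One probe set had 5.91 and 6.00 in knockdown cells and 5.83 and 5.80 in control cells, a difference of 0.14 (unadjusted p = 0.033, adjusted p = 0.62 by limma). Its representative probe set had 5.98 and 5.96 against 6.04 and 6.20, a difference of -0.15, and the third differed by 0.056. None of these pairs of groups overlapped. In all, 12 of the 25 genes with several probe sets had members of both signs. The remaining effectors, DDX60, IFI27 and IFI35, differed by 0.081, 0.076 and -0.0091.

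**Figure D4:**
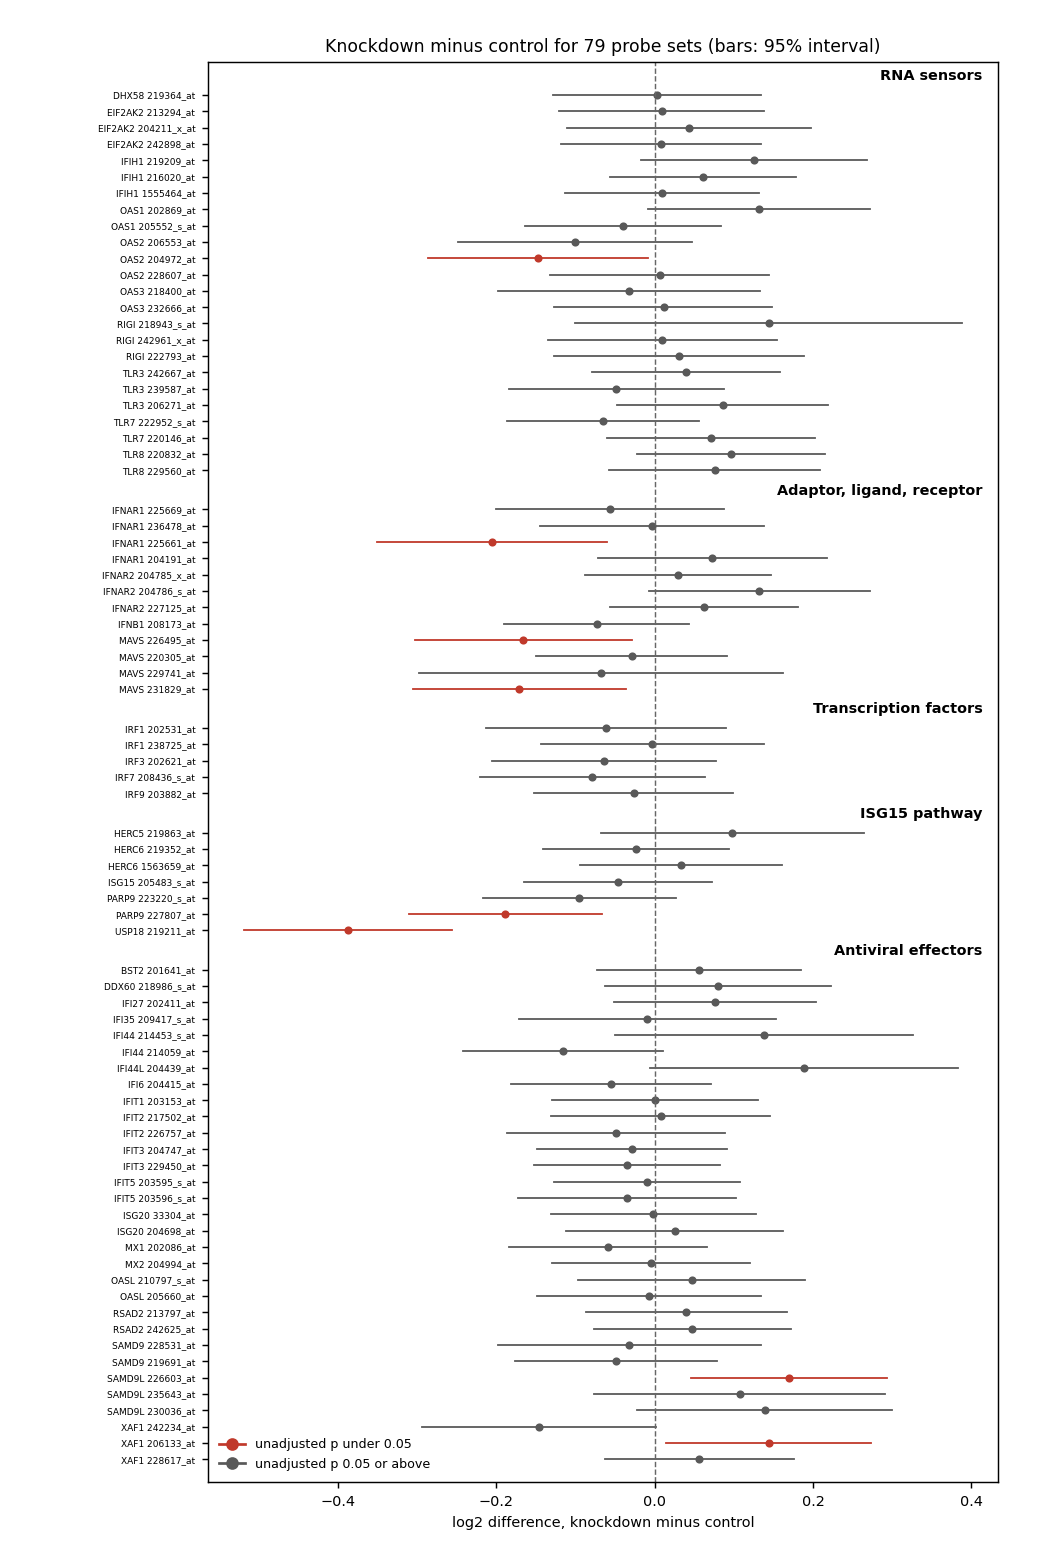
Log2 difference, knockdown minus control (horizontal axis), for each of the 79 probe sets (rows, by role and gene), with bars for the 95% confidence interval of the limma fit; red marks an unadjusted p under 0.05. Red rows number 8, of which 6 lie left of 0 and 2 right, and the USP18 interval from -0.52 to -0.26 lies farthest from 0.

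The differences of genes with and without the promoter core took both signs. As no member probe set passed the threshold, they cannot show whether the core goes with a response. The 18 genes whose window held it had a median of 0.0044, from -0.059 to 0.19, with 10 above and 8 below control at the representative probe set. The 14 genes with a window and no match had a median of -0.025, from -0.17 to 0.17, with 5 above and 9 below. For the 4 genes printed above, the differences were 0.098 for HERC5, -0.055 for IFI6, -0.046 for ISG15 and 0.00 for IFIT1.

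Other genes of the pathway, taken 1 probe set a gene, had 0 members past the threshold in any of 6 lists (limma). Over all genes so taken, 473 of 19775 were higher and 1101 lower at an unadjusted p under 0.05, and the median difference was -0.0094. Of 17 interferon ligand genes all lay below the array median in control cells, and 1 was lower at an unadjusted p under 0.05. This was IFNA5, with 5.62 and 5.68 in knockdown cells and 5.85 and 5.82 in control cells, a difference of -0.18; IFNK (-0.088) and IFNA1 (-0.095) followed by p. The list's median was -0.0059.

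Of 13 receptor, kinase and feedback genes, 1 was higher and 1 lower at that level, with a median of -0.040. IFNGR1, the receptor for interferon gamma, had 10.21 and 10.26 in knockdown cells and 10.40 and 10.47 in control cells, a difference of -0.20 ± 0.055 (SE; limma, adjusted p = 0.60), with its other probe sets at -0.13 and 0.055. SOCS1, an inhibitor that cytokine signalling induces, differed by 0.14 and the receptor kinase gene TYK2 by -0.11. The other probe sets of SOCS1 ran from -0.041 to 0.14. None of 19 sensor adaptors, kinases and other nucleic acid sensors was under 0.05. The smallest p there belonged to PRKRA (-0.090), an activator of PKR, the RNA-editing enzyme gene ADAR (-0.074) and NLRX1 (-0.075), and the median was -0.013. The second probe set of PRKRA differed by 0.0046.

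Of 33 other interferon-induced genes 2 were higher and 0 lower at an unadjusted p under 0.05, and the median was 0.0013. GBP2, a guanylate-binding protein, had 6.65 and 6.46 in knockdown cells and 6.28 and 6.27 in control cells. All knockdown arrays lay above all controls, and the difference was 0.28 ± 0.069 (SE; unadjusted p = 0.0042, adjusted p = 0.60 by limma), with its second probe set at 0.14. TRIM14, an adaptor that works at MAVS, had 8.07 and 8.03 against 7.86 and 7.84, a difference of 0.20 ± 0.052 (SE; limma, adjusted p = 0.60), with 0.024 to 0.11 at its other probe sets. Without knockdown replicate 2 GBP2 was at 0.37, and without knockdown replicate 1 at 0.18.

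Antigen presentation genes, many of which interferon raises, were above control for 13 of 16, with a median of 0.027 and 0 under 0.05; of all genes, 8787 of 19775 were above. The list's median lay 0.049 above the control mean on knockdown replicate 1 and 0.00060 above it on knockdown replicate 2. B2M, the invariant chain of HLA class I, had 12.42 and 12.15 in knockdown cells and 12.12 and 12.16 in control cells, so that knockdown replicate 1 was again the high array. Its difference was 0.14 ± 0.087 (SE), from 0.0059 without knockdown replicate 1 to 0.28 without knockdown replicate 2. Its other 2 probe sets differed by 0.17 and 0.20. The peptide-trimming genes ERAP1 (0.10) and ERAP2 (0.088) had smaller p-values than B2M. Their other probe sets had both signs, from -0.078 to 0.096 for ERAP1 and from -0.019 to 0.097 for ERAP2. Of 18 targets of NF-kB and inflammatory cytokines, 1 was higher at an unadjusted p under 0.05, with a median of 0.016. That gene was NFKB2 (0.14), and the interferon-induced chemokines CXCL11 (-0.12) and CXCL10 (-0.096) followed by p. CXCL10 had 6.15 and 6.14 in knockdown cells against 6.27 and 6.21 in control cells. The second probe set of CXCL11 went the other way, by 0.071.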

How the data were processed

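Total RNA (100 ng per sample) was labelled with biotin and hybridised to 1 array per sample, per the labels' protocols. The deposited values are log2 values, 1 per probe set and array; the submitters' processing notes name RMA and R 3.0.1 but no settings. RMA sets background, scales arrays to 1 distribution and summarises probes, which compresses changes near background. Array medians were 6.58 and 6.61 in knockdown and 6.58 and 6.58 in control samples. Neither detection calls nor scan dates entered the work, so background and batch could not be assessed, and the number of arrays limits the precision.

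Of 54675 probe sets, 62 AFFX controls were left out. Symbols came from the platform annotation, updated through RefSeq identifiers (41037 of 41091 single-gene probe sets matched); 1801 probe sets with several symbols and 11721 not listed were not named. Knockdown minus control was fitted with limma 3.58.1 (lmFit and eBayes, defaults, R 4.3.3) on all 4 arrays without covariates, two-sided, with Benjamini-Hochberg adjustment over 54613 probe sets and a threshold of 0.05. The fit was tested on simulated data. No adjustment was made over the members alone and no set test was run. A representative probe set is the one with the highest mean.

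The members, roles, companion lists and the rule for named genes were chosen with earlier results of these data known. The rule named TSPAN8, every member with a probe set at an unadjusted p under 0.05, the sensors, MAVS, the receptor subunits, IFNB1, the IRFs, 4 classical reporters and the 3 genes with the smallest p of each companion list; other members are named with their difference only, while HERC5 and IFI44L, given with array values, and DCN were chosen after their values were seen. Alternatives were a second quantile normalization, median centring, filters on dim probe sets, array weights, a variance prior that is robust and follows signal, other thresholds, dropping the _s_at and _x_at probe sets, a block for the replicate number, and leaving out each array. Figures were drawn with matplotlib 3.10.9 under Python 3.11.15.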

Additional observations from a re-analysis of the deposited data

How the results depend on the processing

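Signal over background could not be assessed without detection calls, so what it limits here is unknown. The count of member probe sets past the threshold was 0 in all alternatives with 4 arrays at the adjusted threshold, also at an adjusted p under 0.1. It was 2 at an unadjusted p under 0.01. The share of all probe sets at that level is not given here, so the 2 cannot be set against background. Without knockdown replicate 2, USP18 was at -0.44, RIGI at 0.32 and IFI44L at 0.31. In that fit the lone knockdown array is assumed to vary like the control arrays. Probe sets past the threshold in all numbered 1 to 1026 with 1 array left out (1026 without knockdown replicate 2, 25 without knockdown replicate 1) and 1 under the other alternatives except the block. TSPAN8 ran from -1.32 to -1.22 with 1 array left out. The labels pair no samples, and deviations of equal replicate numbers correlated at 0.051. With the replicate number as a block, TSPAN8 was at -1.27 with an adjusted p of 0.16 (limma), 0 probe sets passed and 8 members were under 0.05 unadjusted.

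Members under an unadjusted 0.05 numbered 8, against 5 of the 34 left above the median signal, 2 at the stricter 0.01, and 3 to 16 with 1 array left out (16 without knockdown replicate 2, 3 without control replicate 2). Among all probe sets the share under 0.05 was 7.83% in the main fit and 9.81% above the median signal, and no such share is given for 0.01. The share under 0.05 also changed with 1 array left out, though not always in the same direction as the members' count. Whether the swing in the count is particular to the members was not tested. The median over member probe sets was -0.014 after median centring and -0.025 above the median signal, and -0.0070 to 0.013 with 1 array left out. The median over member genes was -0.0070, against -0.021 and -0.029 in those alternatives and -0.024 to 0.0077 with 1 array left out. Median centring shifts all differences alike by its construction. Above the 25th and the 75th percentile of the control arrays, in place of the median, there were 55 and 9 member probe sets.

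Of the named genes, 5 values of 348 turned sign outside leave-one-out, all close to 0: DHX58 (-0.011 after both the second quantile normalization and median centring), IFIT1 (-0.014 after both) and EIF2AK2 (-0.0050 after median centring). With 1 array left out, sign turned for DHX58 (-0.038 to 0.044), IFIT1 (-0.037 to 0.037), EIF2AK2 (-0.039 to 0.057), OAS3 (-0.13 to 0.065), RIGI (-0.029 to 0.32) and IRF9 (-0.066 to 0.013). What causes them was not tested.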
